A study of Homo sapiens with 6 samples.

Results

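The genes described here are 40 genes of the Wnt pathway, taken by symbol from the 50550 genes and loci counted in the series: 13 Wnt ligand genes, 8 Frizzled receptor genes, the co-receptor genes LRP5 and LRP6, and 17 genes whose products remove receptors, act inside the receiving cell, inhibit the pathway or modify the ligand before secretion. All 40 were found in the count and FPKM tables. RNA of U2OS, an established human osteosarcoma cell line, was sequenced in 6 libraries, 3 titled Lv_LINC00673 and 3 titled Lv_NC, whose genotype labels read LINC00673 and NC. The design text speaks of a knockdown of LINC00673, a long noncoding RNA, and of wild-type cells. The labels leave Lv and NC unexplained, and Lv_NC could be untreated cells as well as a vector control. Whether libraries of 1 group were separate cultures, clones or days is likewise unstated, so the p-values below rest on a spread between libraries that may be technical only. Fold changes are Lv_LINC00673 over Lv_NC.

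Wnt proteins are secreted, lipid-modified ligands that bind Frizzled receptors together with LRP5 or LRP6. Without a ligand, a destruction complex built on the AXIN and APC scaffolds marks beta-catenin, the product of CTNNB1, for degradation. With a ligand the complex is inactivated, and beta-catenin enters the nucleus and joins the TCF/LEF DNA-binding factors. Several genes that this switches on, among them AXIN2, RNF43, ZNRF3, DKK1, NKD1 and LEF1, encode parts of the pathway itself and feed back on it. In bone, beta-catenin signalling through LRP5 is best known for promoting osteoblast formation.

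Base composition differed among the members, and 4 promoters, picked by hand and not by a rule, are shown as examples. These are the 250 bases before the transcription start of APC and WNT2B, which were higher in the Lv_LINC00673 libraries, and of AXIN1 and LRP5, which were lower. They are taken from RefSeq (GRCh38.p14), written 5′ to 3′ on the gene's own strand, with each CG dinucleotide in capitals. APC lies at chr5:112707248-112707497 on the plus strand, WNT2B at chr1:112466291-112466540 on the plus strand, AXIN1 at chr16:352724-352973 on the minus strand and LRP5 at chr11:68312341-68312590 on the plus strand. The LRP5 window stands before a start inside the annotated gene span, which begins at base 68298412.
APC: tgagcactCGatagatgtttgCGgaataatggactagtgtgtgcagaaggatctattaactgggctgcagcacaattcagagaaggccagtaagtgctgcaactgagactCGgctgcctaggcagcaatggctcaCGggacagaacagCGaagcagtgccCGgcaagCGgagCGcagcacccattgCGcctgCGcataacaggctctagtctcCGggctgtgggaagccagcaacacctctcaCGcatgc
WNT2B: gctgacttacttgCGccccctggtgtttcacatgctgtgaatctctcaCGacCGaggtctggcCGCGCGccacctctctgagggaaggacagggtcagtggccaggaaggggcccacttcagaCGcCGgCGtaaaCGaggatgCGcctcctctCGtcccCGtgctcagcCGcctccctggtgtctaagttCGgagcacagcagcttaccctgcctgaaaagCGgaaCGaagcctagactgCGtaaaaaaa
AXIN1: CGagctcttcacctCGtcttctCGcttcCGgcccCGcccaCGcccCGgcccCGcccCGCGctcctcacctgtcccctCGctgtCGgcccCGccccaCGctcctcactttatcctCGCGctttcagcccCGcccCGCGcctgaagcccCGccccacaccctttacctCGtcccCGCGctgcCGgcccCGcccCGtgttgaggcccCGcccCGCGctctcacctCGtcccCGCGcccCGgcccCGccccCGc
LRP5: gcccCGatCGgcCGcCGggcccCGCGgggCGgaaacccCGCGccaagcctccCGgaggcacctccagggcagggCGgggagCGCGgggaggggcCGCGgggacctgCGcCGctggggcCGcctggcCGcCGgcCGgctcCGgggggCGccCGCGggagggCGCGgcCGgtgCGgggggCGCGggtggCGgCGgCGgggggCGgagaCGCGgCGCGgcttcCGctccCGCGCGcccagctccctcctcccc
The APC window held 12 CG dinucleotides and 56.4% G and C bases, and the WNT2B window 18 and 60.4%. The AXIN1 window held 35 and 77.6%, and the LRP5 window 43 and 87.2%. These 4 do not stand for all members. The windows of TCF7 and TCF7L2, also higher in Lv_LINC00673, held 70.8 and 68.0%. Those of tested members that did not pass the test described below spanned 47.6 to 86.8%.

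Total counts were 61815841 to 71237493 in the Lv_LINC00673 libraries and 76814723 to 87227980 in the Lv_NC libraries. LINC00673 itself measured 6.55, 6.23 and 6.38 TMM-normalized CPM (read counts scaled to library size) in the Lv_LINC00673 libraries and 9.16, 9.27 and 7.08 CPM in the Lv_NC libraries, with a log2 fold change of -0.41 (SE 0.16, adjusted p = 0.0924 in edgeR's quasi-likelihood test), so its difference did not pass the threshold. Directions below are therefore between libraries as labelled. Of 8 osteosarcoma line markers, 6 passed the filter on low counts, and COL1A2 and TWIST1 did not. The summed FPKM of the 8 was 1480 to 1650 in Lv_LINC00673 and 1150 to 1250 in Lv_NC, most of it VIM. RUNX2, VIM and ALPL were higher and SPARC was lower (log2 fold change -0.36, adjusted p = 0.0141). Blood markers reached 36.0 to 40.9 FPKM in Lv_LINC00673 and 31.1 to 41.8 in Lv_NC, almost all of it CD68, while PTPRC, CD3E, CD14, HBB and LYZ did not pass the filter. Summed epithelial, neural, endothelial and muscle markers lay above every Lv_NC library in each Lv_LINC00673 library (13.4 to 13.5 against 9.19 to 10.9, 42.2 to 45.1 against 30.8 to 31.5, 0.957 to 1.20 against 0.652 to 0.828 and 13.1 to 14.8 against 10.2 to 11.9 FPKM). FPKM follow library totals without TMM factors, and on log2(FPKM + 1) 14.7% of all genes were higher and 5.49% lower. In the edgeR test with TMM factors the largest marker of each list had a log2 fold change of 0.25 (CLDN4), 0.52 (NEFL), 0.29 (CDH5) and 0.15 (MYOD1). No gene of the epithelial, endothelial and muscle lists passed that test. Of the 5 neural genes 1 did, NEFL. The part of these markers in the results was not tested.

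Levels of different genes were compared in the deposited FPKM, fragment counts scaled to gene length and library size. By the mean over the Lv_NC libraries, 5 members lay at or above 10 FPKM, 21 between 1 and 10, 11 between 0.1 and 1, and 3 below 0.1. The 5 were CTNNB1 with 66.5 ± 8.05 FPKM in Lv_LINC00673 and 63.0 ± 4.94 in Lv_NC, AXIN1 with 26.4 ± 1.92 in Lv_LINC00673 and 37.5 ± 2.75 in Lv_NC, DKK3 with 27.9 ± 1.73 in Lv_LINC00673 and 31.5 ± 4.44 in Lv_NC, LRP5 and PORCN (SD, n = 3 each). TCF7, WNT16 and TNFRSF19 made up the lowest class. U2OS cells of both groups thus held RNA of ligands, receptors, destruction complex and nuclear factors in every library, with WNT10B as the most abundant ligand gene and DKK3 as the most abundant inhibitor gene by FPKM.

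**Figure D1:**
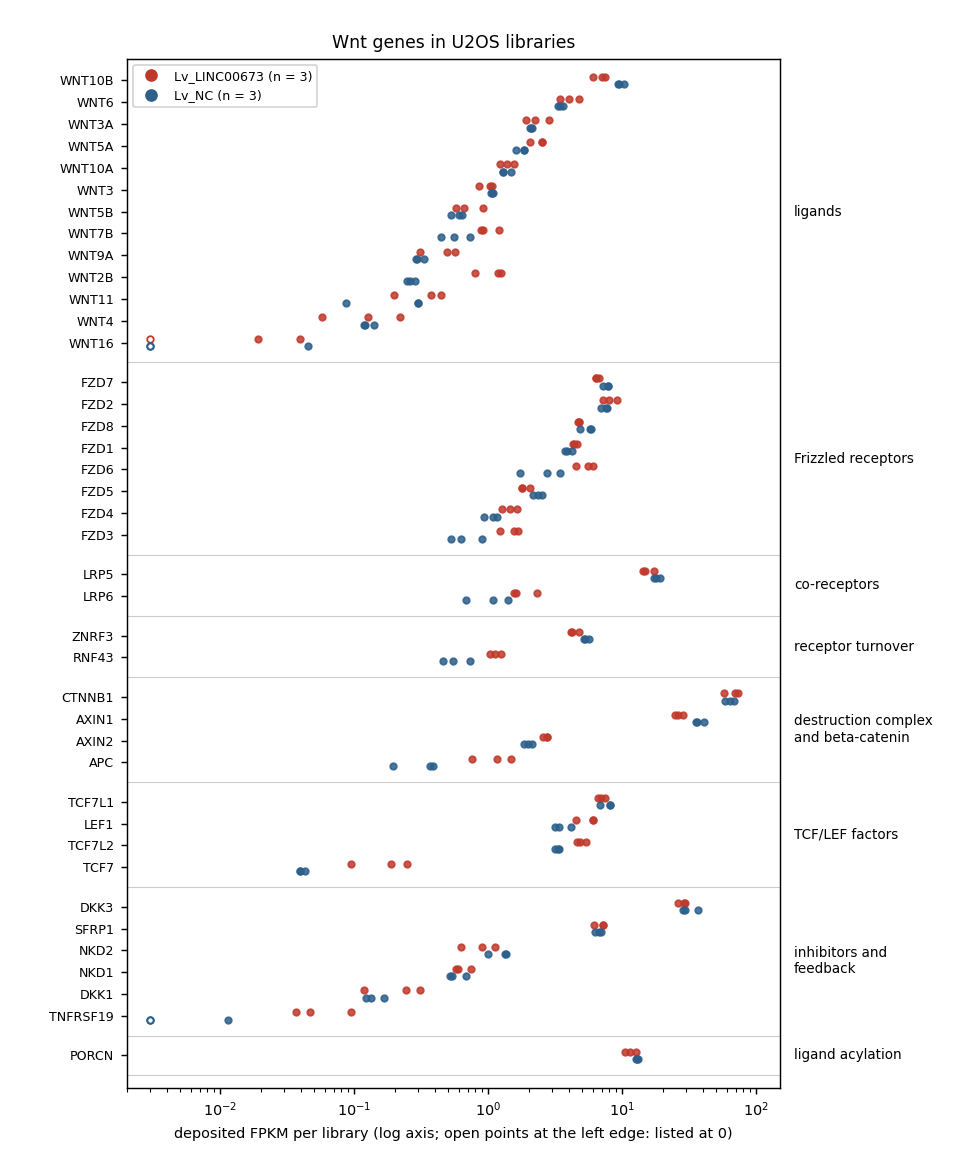
Deposited FPKM of the 40 genes on a log axis, 1 point per library, Lv_LINC00673 above Lv_NC within each gene and genes grouped by role. CTNNB1 lies highest, at 66.5 FPKM in Lv_LINC00673 and 63.0 FPKM in Lv_NC on average, and WNT16 and TNFRSF19 have libraries listed at 0 (open points at the left edge).

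Between the groups, 39 of the 40 genes had enough reads to test, and 14 of them (35.9%) passed an adjusted p of 0.05, 8 higher and 6 lower in Lv_LINC00673. Over all 21933 genes tested, 26.8% passed, 14.3% higher and 12.5% lower. The median log2 fold change was 0.01 over the 39 members and 0.05 over all genes tested. In 24 of the 39 members (61.5%) the 2 groups did not overlap in CPM, 13 higher and 11 lower, against 45.1% of all genes tested. With no filter on low counts, 13 of 40 members passed, 7 higher and 6 lower, beside 16.0% of all genes, and the one lost was TNFRSF19. A filter of 1 CPM in 3 libraries brought the shares closer, at 13 of 34 members and 36.4% of all genes. The member count was 7 without Lv_LINC00673 library 2, 6 without Lv_LINC00673 library 3 and 7 without Lv_NC library 3, and over all genes it was 2800, 2902 and 2956 without these libraries and 3677 without Lv_NC library 2. Scaling by library totals moved the median of all genes up by 0.17 and the split of members to 10 higher and 2 lower, beside 18.5% of all genes higher and 5.58% lower. On log2(FPKM + 1) 7 members were higher and 2 lower, beside 14.7% of all genes higher and 5.49% lower. The gene left untested was WNT16, a ligand gene, with 0, 8 and 4 counts in Lv_LINC00673 and 12, 0 and 0 counts in Lv_NC.

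**Figure D2:**
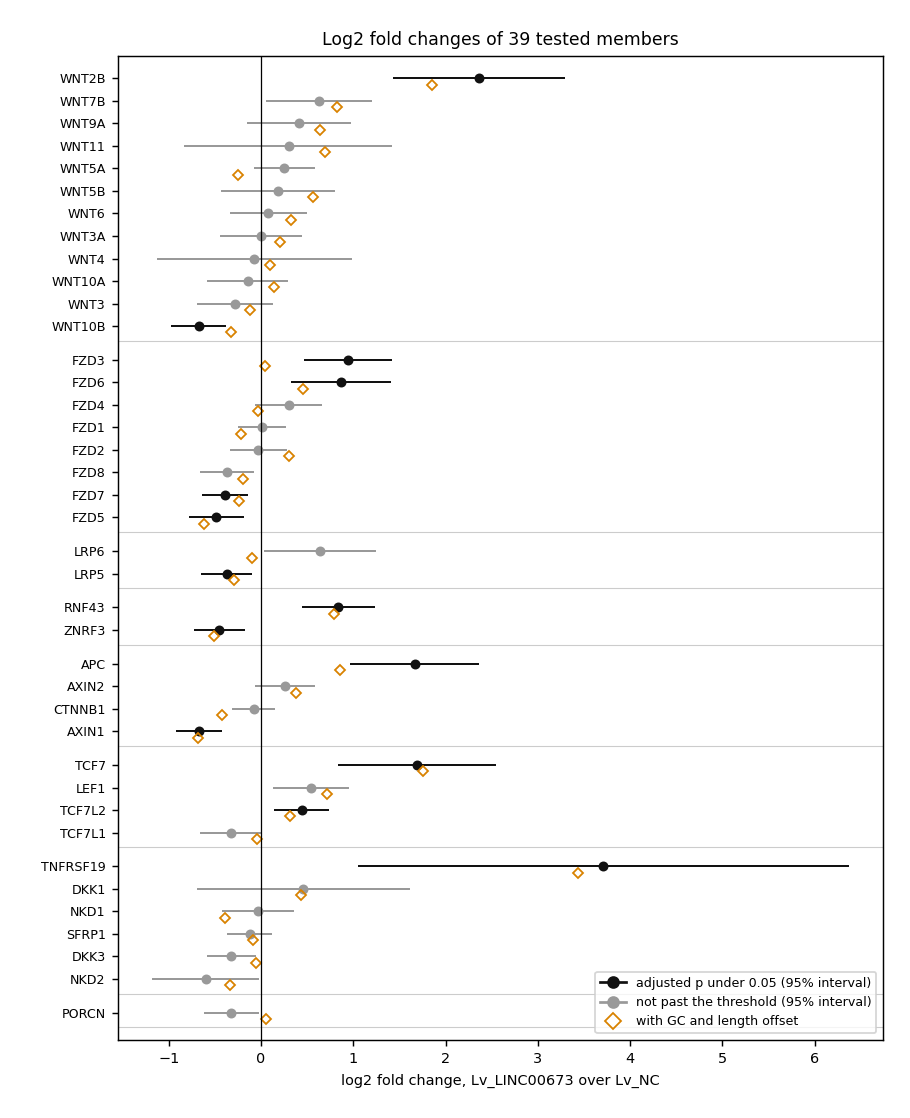
Log2 fold changes, Lv_LINC00673 over Lv_NC, of the 39 tested members by role, with 95% intervals from edgeR's quasi-likelihood test (n = 3 libraries per group). Black marks the 14 past the threshold, and open diamonds give the estimate with a GC and length offset, which for FZD3 is 0.04 in place of 0.94.

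Among the 12 tested ligand genes, WNT2B was higher and WNT10B lower in Lv_LINC00673, and the other 10 did not pass the test. WNT2B measured 7.34, 3.27 and 2.41 CPM in the Lv_LINC00673 libraries and 0.788, 0.839 and 0.905 CPM in the Lv_NC libraries. Its 3 Lv_NC libraries were nearly alike and all below every Lv_LINC00673 library, of which library 1 stood far above the others. WNT2B had a log2 fold change of 2.36 (SE 0.41, adjusted p = 0.00662, range over 19 alternatives 2.07e-07 to 0.0462), and 1.74 without Lv_LINC00673 library 1. In FPKM that library did not stand apart: WNT2B had 1.24, 1.18 and 0.792 FPKM in Lv_LINC00673 and 0.248, 0.260 and 0.283 FPKM in Lv_NC. The gene length implied by a library's count and FPKM was 6067 bases in Lv_LINC00673 library 1 and 2994 to 3239 bases in the other 5. WNT2B also overlaps ST7L by 12363 bases on chromosome 1, and whether reads were assigned by strand was not stated in the sources at hand. ST7L had 663, 567 and 652 counts in Lv_LINC00673 and 551, 810 and 773 counts in Lv_NC. Whether reads of the shared bases entered the WNT2B count was not tested.

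WNT10B encodes a ligand known from mice to promote bone formation. It measured 15.8, 13.2 and 15.8 CPM in Lv_LINC00673 and 23.8, 24.3 and 23.3 CPM in Lv_NC, with a log2 fold change of -0.67 (SE 0.13, adjusted p = 0.00811, range over 19 alternatives 6.1e-06 to 0.0586). Every Lv_LINC00673 library lay well below every Lv_NC library, and each group was tight. With an offset for GC content and length the log2 fold change was -0.32 (adjusted p = 0.0356), under the size without it but past the threshold. In bulk RNA, fewer cells expressing a gene and less of its RNA per cell cannot be told apart, here and below.

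WNT7B, a ligand needed for lung development in mice, measured 4.80, 3.48 and 3.37 CPM in Lv_LINC00673 and 2.38, 3.23 and 1.92 CPM in Lv_NC. The groups did not overlap, though the closest libraries nearly met, and the log2 fold change of 0.63 did not pass (SE 0.25, adjusted p = 0.0939). With the offset it was 0.82 (adjusted p = 0.0184), and with 1 library left out the adjusted p without the offset was 0.0495 to 0.251. WNT5A, best known for signalling without beta-catenin, had a log2 fold change of 0.25 (adjusted p = 0.214) without overlap. WNT3A, the ligand most used to switch on beta-catenin signalling in culture, measured 8.58, 5.50 and 6.5 CPM in Lv_LINC00673 and 6.75, 6.92 and 6.93 CPM in Lv_NC, and its 95% interval reached from -0.43 to 0.43 on the log2 scale. Its Lv_LINC00673 libraries scattered to both sides of the Lv_NC libraries. The remaining ligand genes WNT3, WNT4, WNT5B, WNT6, WNT9A, WNT10A and WNT11 had log2 fold changes between -0.28 and 0.41. WNT3 also has 2 numbered copies in the table, which held 69.5% of its reads, and with the copies summed its log2 fold change was -0.28 (adjusted p = 0.18). WNT6 and WNT10A overlap by 118 bases on chromosome 2.

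The summed FPKM of the 13 ligand genes was 23.2, 19.8 and 22.0 in Lv_LINC00673 and 21.2, 22.2 and 20.9 in Lv_NC, and the groups overlapped. Within that sum WNT10B held 32.1, 30.4 and 32% in Lv_LINC00673 and 44.4, 46.0 and 44.3% in Lv_NC, the first ligand gene in each library. WNT2B held 5.35, 5.98 and 3.61% in Lv_LINC00673 and 1.17, 1.17 and 1.36% in Lv_NC. The shares of one library are not independent, since a lower WNT10B raises all others.

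**Figure D3:**
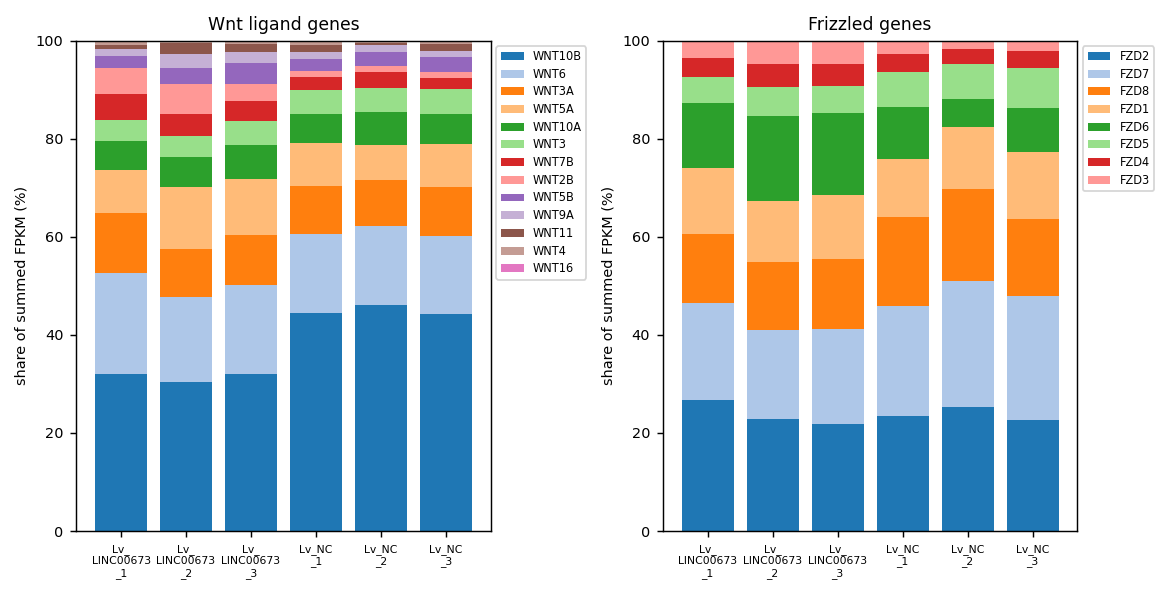
Share of each gene in the summed FPKM of the 13 ligand genes and of the 8 Frizzled genes, 1 bar per library, Lv_LINC00673 libraries left and Lv_NC libraries right. WNT10B fills 30.4 to 32.1% of the ligand bars in Lv_LINC00673 and 44.3 to 46.0% in Lv_NC.

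The 8 Frizzled genes, which encode the seven-pass receptors, split evenly: FZD3 and FZD6 were higher, FZD5 and FZD7 lower, and FZD1, FZD2, FZD4 and FZD8 did not pass. FZD3 and FZD6 are known from mice as receptors of planar cell polarity. FZD3 measured 16.9, 21.8 and 20.8 CPM in Lv_LINC00673 and 13.4, 8.16 and 9.45 CPM in Lv_NC (log2 fold change 0.94 with SE 0.20, adjusted p = 0.0127, range over 19 alternatives 9.55e-05 to 0.82). FZD6 measured 17.0, 21.5 and 20 CPM in Lv_LINC00673 and 13.8, 7.11 and 11.1 CPM in Lv_NC (log2 fold change 0.87 with SE 0.23, adjusted p = 0.0261, range over 19 alternatives 0.00137 to 0.0851). For both genes Lv_LINC00673 library 1 was the lowest and Lv_NC library 1 the highest of its group, which left a small gap between the groups. The offset for GC content and length left 0.04 of the FZD3 value (adjusted p = 0.82) and 0.45 of the FZD6 value (adjusted p = 0.032). FZD3 did not pass without Lv_NC library 3 (adjusted p = 0.0558). FZD6 did not pass without Lv_LINC00673 library 2 or 3 or Lv_NC library 3 (adjusted p = 0.0851, 0.08 and 0.0763).

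FZD7 and FZD5, both receptors of beta-catenin signalling, lay on the other side. FZD7 measured 31.1, 28 and 28.4 CPM in Lv_LINC00673 and 35.7, 40 and 39.1 CPM in Lv_NC (log2 fold change -0.39 with SE 0.10, adjusted p = 0.026, range over 19 alternatives 0.00468 to 0.141). FZD5 measured 12.8, 13.7 and 12.3 CPM in Lv_LINC00673 and 17.9, 17.1 and 19.4 CPM in Lv_NC (log2 fold change -0.49 with SE 0.13, adjusted p = 0.0241, range over 19 alternatives 0.00127 to 0.223). Neither gene's groups overlapped. Both calls held with the offset, at -0.24 for FZD7 (adjusted p = 0.0416) and -0.62 for FZD5 (adjusted p = 0.00304), but neither passed when libraries were scaled by their totals. Neither passed without Lv_LINC00673 library 2 or 3 or without Lv_NC library 3, with adjusted p between 0.051 and 0.0931, and FZD7 also not without Lv_NC library 2 (adjusted p = 0.0856).

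FZD8 measured 19.3, 18.5 and 18.6 CPM in Lv_LINC00673 and 25.8, 25.8 and 21.2 CPM in Lv_NC, without overlap and just short of the threshold (log2 fold change -0.37, SE 0.12, adjusted p = 0.0576). FZD2, the Frizzled gene with the highest mean FPKM over all 6 libraries (FZD7 led by the mean over Lv_NC), measured 34.8, 28.8 and 26.5 CPM in Lv_LINC00673 and 30.8, 32.4 and 28.6 CPM in Lv_NC, which overlapped (log2 fold change -0.03, adjusted p = 0.896), and its sign changed with the scaling and the offset. The log2 fold change of FZD1 was 0.01 (adjusted p = 0.955) and that of FZD4 0.30 (adjusted p = 0.187). FZD6 made up 13.3, 17.3 and 16.8% of the summed Frizzled FPKM in Lv_LINC00673 and 10.6, 5.62 and 8.87% in Lv_NC. The Frizzled sum itself was 33.8, 34.8 and 32.9 FPKM in Lv_LINC00673 and 32, 30.4 and 30.7 FPKM in Lv_NC. These FPKM follow library totals without TMM factors, and on log2(FPKM + 1) 14.7% of all genes were higher and 5.49% lower. In the edgeR test with TMM factors the median log2 fold change of the 8 genes was -0.01, so the sums do not show more Frizzled RNA.

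Of the co-receptor genes, LRP5 was lower and LRP6 did not pass. LRP5 measured 92.1, 75 and 72.5 CPM in Lv_LINC00673 and 94.9, 112 and 103 CPM in Lv_NC. The highest Lv_LINC00673 library came close to the lowest Lv_NC library, both of them library 1. In FPKM the groups overlapped, with Lv_LINC00673 library 1 at 17.3 and Lv_NC library 1 at 17.2. LRP5 had a log2 fold change of -0.37 (SE 0.12, adjusted p = 0.0456, range over 19 alternatives 0.0113 to 0.201), close to the threshold. It missed the threshold without Lv_LINC00673 library 2 or 3 (adjusted p = 0.132 and 0.156) and without Lv_NC library 2 or 3 (adjusted p = 0.137 and 0.114), and passed with the offset (-0.29, adjusted p = 0.0113). LRP6 measured 15.6, 21.2 and 14.3 CPM in Lv_LINC00673 and 14.7, 7.32 and 10.9 CPM in Lv_NC (log2 fold change 0.64 with SE 0.26, adjusted p = 0.104). One Lv_LINC00673 library lay inside the Lv_NC range. A numbered copy of LRP6 held 53.9% of its reads, and with both summed, a step chosen after the data were seen, the log2 fold change was 0.68 (SE 0.21, adjusted p = 0.0431). With the offset the value of LRP6 without its copy was -0.10 (adjusted p = 0.683), and with 1 library left out its adjusted p was 0.0278 to 0.311. By FPKM LRP5 made up 86.5 to 91.4% of the co-receptor pair in Lv_LINC00673 and 92.5 to 96.5% in Lv_NC.

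RNF43 and ZNRF3 encode related membrane ubiquitin ligases that remove Frizzled receptors from the cell surface, and the pair moved in opposite directions. RNF43 measured 5.64, 5.35 and 6.03 CPM in Lv_LINC00673 and 3.27, 3.52 and 2.77 CPM in Lv_NC, a clear gap with little spread in either group. Its log2 fold change was 0.83 (SE 0.17, adjusted p = 0.0103, range over 19 alternatives 0.000427 to 0.0676) and 0.79 with the offset (adjusted p = 0.00601). ZNRF3 measured 32.9, 27.1 and 28 CPM in Lv_LINC00673 and 38.9, 43.1 and 38.0 CPM in Lv_NC. All 3 Lv_LINC00673 libraries were below all 3 Lv_NC libraries. The log2 fold change of ZNRF3 was -0.45 (SE 0.12, adjusted p = 0.0235, range over 19 alternatives 0.0034 to 0.118) and -0.51 with the offset (adjusted p = 0.00407). RNF43 passed without any single library, while ZNRF3 did not pass without Lv_LINC00673 library 2 or 3 (adjusted p = 0.077 and 0.0862), without Lv_NC library 2 or 3 (adjusted p = 0.0777 and 0.0594), or with scaling by library totals. ZNRF3 stayed the more abundant of the pair by FPKM in each library. Reads on the 1228 bases that RNF43 shares with the noncoding gene TSPOAP1-AS1, which had 8 to 37 counts in Lv_LINC00673 and 59 to 79 in Lv_NC, cannot be assigned without strand.

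Inside the cell, APC was higher and AXIN1 lower, while AXIN2 and CTNNB1 did not pass. APC, the large scaffold of the destruction complex, measured 8.45, 15.4 and 12.2 CPM in Lv_LINC00673 and 4.34, 2.39 and 4.61 CPM in Lv_NC. Lv_LINC00673 library 1 and Lv_NC library 2 were the lowest of their groups, and the groups did not overlap. APC had a log2 fold change of 1.67 (SE 0.30, adjusted p = 0.0075, range over 19 alternatives 2.79e-07 to 0.0498), and 0.86 with the offset (adjusted p = 0.0106). AXIN1, the scaffold that is thought to limit assembly of the complex, measured 102, 84.6 and 92.0 CPM in Lv_LINC00673 and 139, 163 and 142 CPM in Lv_NC, without overlap. Its log2 fold change was -0.67 (SE 0.11, adjusted p = 0.00534, range over 19 alternatives 4.13e-06 to 0.0475) and -0.68 with the offset (adjusted p = 0.000562). WNT2B, APC and AXIN1 were the 3 members that passed under all 19 alternatives. The share of all genes that did so was not counted. With replicate number as a block, the alternative with the fewest calls, these 3 of 39 members (7.69%) and 5.51% of all genes passed. Their promoters are printed above, and over the whole longest transcript G and C made up 44.55% of bases for WNT2B, 39.60% for APC and 63.79% for AXIN1. For WNT2B and AXIN1 that transcript is longer than the length implied by their counts and FPKM.

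AXIN2, a paralog of AXIN1 and a standard readout of beta-catenin signalling, measured 10.8, 11.3 and 11.6 CPM in Lv_LINC00673 and 8.76, 9.29 and 10.1 CPM in Lv_NC. Its groups did not overlap, but the difference was small (log2 fold change 0.26, SE 0.14, 95% interval -0.05 to 0.57, adjusted p = 0.196, and 0.218 to 0.398 with 1 library left out). With the offset AXIN2 was at 0.38 (adjusted p = 0.0324). CTNNB1, which encodes beta-catenin, measured 198, 236 and 231 CPM in Lv_LINC00673 and 250, 221 and 230 CPM in Lv_NC. The groups overlapped, with a log2 fold change of -0.08 (SE 0.10, 95% interval -0.30 to 0.14, adjusted p = 0.593). The offset gave -0.42 for CTNNB1 (adjusted p = 0.00211, range over 19 alternatives 0.00211 to 0.938) and scaling by library totals 0.09, so its direction depended on the scaling. RNA levels say nothing of the amount of beta-catenin protein, which the pathway sets by degradation.

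Of the 4 TCF/LEF genes, which encode the DNA-binding partners of beta-catenin, TCF7 and TCF7L2 were higher and LEF1 and TCF7L1 did not pass. TCF7L2 measured 18.5, 18.6 and 21.1 CPM in Lv_LINC00673 and 13.5, 14.8 and 14.5 CPM in Lv_NC (log2 fold change 0.44 with SE 0.13, adjusted p = 0.0331, range over 19 alternatives 0.0107 to 0.139). The groups were apart, but the gene passed only without Lv_LINC00673 library 1 when libraries were left out in turn, with adjusted p of 0.0671 to 0.139 without any of the other 5, and 0.0758 with the offset. LEF1, itself a target of the pathway, measured 15.8, 20.1 and 17.0 CPM in Lv_LINC00673 and 14.8, 11.0 and 10.5 CPM in Lv_NC. It stood just short of the threshold without overlap (log2 fold change 0.54, SE 0.18, adjusted p = 0.0511, and 0.0182 to 0.169 with 1 library left out), and past it with the offset (0.72, adjusted p = 0.0154). TCF7L1, the member of the family known mainly as a repressor, measured 20.8, 18.8 and 18.7 CPM in Lv_LINC00673 and 20.4, 26.8 and 26.2 CPM in Lv_NC (log2 fold change -0.33, adjusted p = 0.112). Lv_NC library 1 lay with the Lv_LINC00673 libraries.

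TCF7 was scarce, with 47, 64 and 89 counts in Lv_LINC00673 and 24, 24 and 21 counts in Lv_NC. In CPM that was 0.642, 0.956 and 1.31 in Lv_LINC00673 and 0.310, 0.296 and 0.288 in Lv_NC (log2 fold change 1.69 with SE 0.37, adjusted p = 0.0135, range over 18 alternatives 0.00262 to 0.0931). It did not pass without Lv_LINC00673 library 3 (adjusted p = 0.063). TCF7 overlaps VDAC1, a mitochondrial channel gene, by 6323 bases on chromosome 5. VDAC1 held 135668 counts over the 6 libraries against 269 for TCF7, so a small share of misassigned reads would change the TCF7 value, which is reported as uncertain. The summed TCF/LEF FPKM was 16.7, 17.6 and 18.6 in Lv_LINC00673 and 14, 14.8 and 14.6 in Lv_NC. Like the Frizzled sum, it follows library totals without TMM factors.

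The inhibitor and feedback genes held 1 member past the threshold, TNFRSF19, among 6. TNFRSF19 encodes a receptor of the tumour necrosis factor family. It had 12, 12 and 28 counts in Lv_LINC00673 and 0, 0 and 4 counts in Lv_NC, so it passed the filter on low counts only through the Lv_LINC00673 libraries, and its call supports nothing further. With no filter it did not pass (adjusted p = 0.0886). The log2 fold change of 3.71 (SE 1.16, adjusted p = 0.0455, range over 15 alternatives 0.0229 to 0.157) moved to 7.21 without Lv_NC library 3, which leaves the group at 0 counts, and the gene passed in no fit that left out any of the other 5 libraries (adjusted p of 0.0586 to 0.157). DKK3, a divergent member of the Dickkopf family and the most abundant inhibitor gene here, measured 77.1, 71.5 and 66.5 CPM in Lv_LINC00673 and 101, 85.9 and 81.5 CPM in Lv_NC. Its groups did not overlap in CPM, as in 45.1% of all genes tested, but did in FPKM. DKK3 stood just short of the threshold (log2 fold change -0.32, SE 0.11, adjusted p = 0.0582, range over 19 alternatives 0.032 to 0.724), and with the offset it was -0.05 (adjusted p = 0.724).

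DKK1, a secreted inhibitor that binds LRP5 and LRP6, was scarce at 0.574, 0.418 and 0.205 CPM in Lv_LINC00673 and 0.271, 0.259 and 0.343 CPM in Lv_NC (log2 fold change 0.46, 95% interval -0.68 to 1.6, adjusted p = 0.541). SFRP1, which binds Wnt ligands outside the cell, had a log2 fold change of -0.12 (adjusted p = 0.418). NKD1 and NKD2 encode inhibitors that bind Dishevelled inside the cell. Their log2 fold changes were -0.03 (adjusted p = 0.921) and -0.60 (adjusted p = 0.111), and NKD2 has a numbered copy that held 40.5% of its reads. PORCN, whose product attaches the lipid that Wnt ligands need for secretion, measured 24.2, 18.9 and 20.9 CPM in Lv_LINC00673 and 26.3, 27.5 and 26.2 CPM in Lv_NC. The groups were apart in CPM but overlapped in FPKM. PORCN did not pass (log2 fold change -0.32, SE 0.13, adjusted p = 0.0929, range over 19 alternatives 0.0323 to 0.703), and with the offset its sign was the other (0.05, adjusted p = 0.703).

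**Figure D4:**
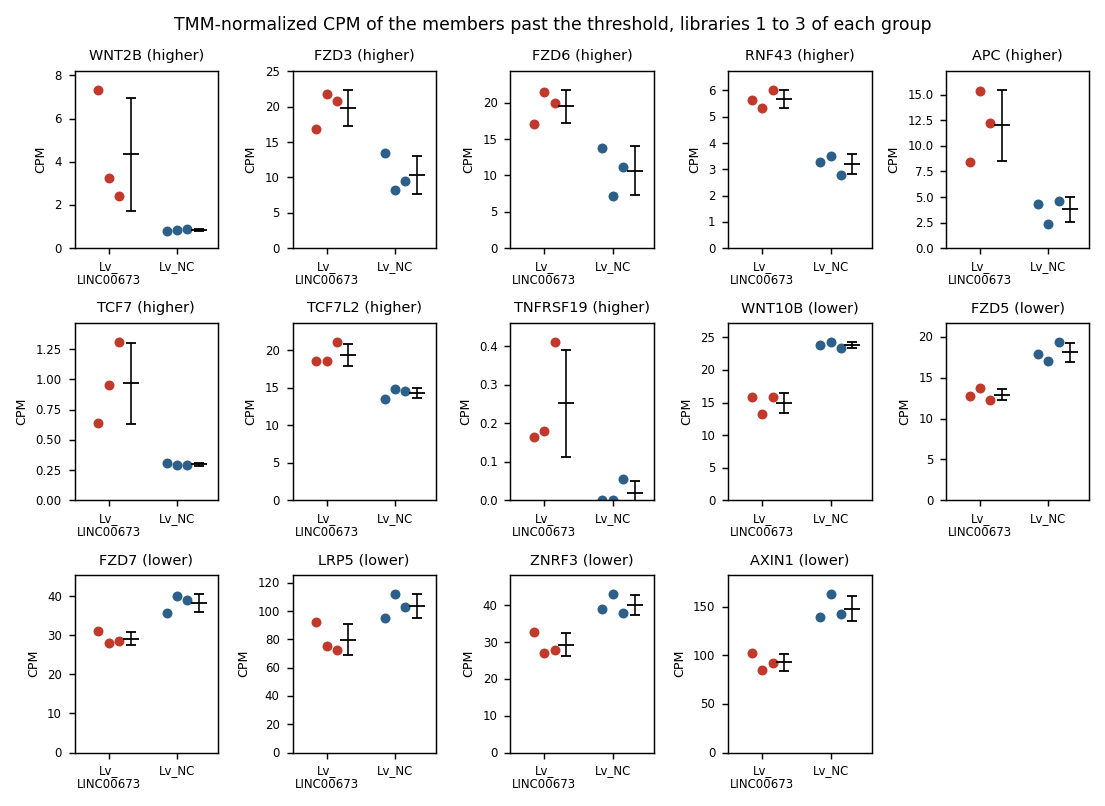
TMM-normalized CPM of the 14 members past the threshold, 1 panel per gene with its own axis from 0, Lv_LINC00673 left and Lv_NC right, with the mean ± SD of 3 libraries beside the points. The panels were picked by the test on these same libraries, which favours groups that lie apart. The groups do not overlap in CPM in any panel, nor in 45.1% of all genes tested. APC averages 12.0 ± 3.49 CPM in Lv_LINC00673 and 3.78 ± 1.21 CPM in Lv_NC. LRP5, whose groups overlap in FPKM, averages 79.9 ± 10.7 CPM in Lv_LINC00673 and 103 ± 8.64 CPM in Lv_NC.

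The ratio of the FPKM of related genes within a library is left unchanged by any common scaling of that library. The 6 pairs below were chosen after their values were seen, for their separation, and are a description. An exact permutation test of the libraries gave p = 0.1 for each pair, the lowest it can reach with n = 3 per group. It could therefore decide nothing. Both genes passed the test in RNF43 and ZNRF3 and in FZD6 and FZD7, while LRP6, AXIN2, LEF1 and TCF7L1 did not pass. RNF43 over ZNRF3 was 0.263 ± 0.0446 in Lv_LINC00673 and 0.108 ± 0.0212 in Lv_NC. AXIN2 over AXIN1 was 0.101 ± 0.0111 in Lv_LINC00673 and 0.0530 ± 0.00482 in Lv_NC. FZD6 over FZD7 was 0.828 ± 0.141 in Lv_LINC00673 and 0.348 ± 0.128 in Lv_NC, and LRP6 over LRP5 was 0.119 ± 0.0322 in Lv_LINC00673 and 0.0593 ± 0.0228 in Lv_NC (SD, n = 3). TCF7L2 over TCF7L1 was 0.708 ± 0.0851 in Lv_LINC00673 and 0.430 ± 0.0263 in Lv_NC, and LEF1 over TCF7L1 was 0.798 ± 0.167 in Lv_LINC00673 and 0.474 ± 0.116 in Lv_NC. Such a ratio does not remove a difference that follows GC content, and in each pair the first gene had the lower GC content. Over the longest transcript it was 40.21% for LRP6 and 62.84% for LRP5. The closest pair was RNF43 with 50.65% and ZNRF3 with 53.45%. The part of GC content in the ratios was not tested.

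Fold changes went with base composition, in the members as over the genome. Across the 39 tested members, Spearman's rho between log2 fold change and GC content of the longest transcript was -0.53, and across 18160 tested genes with a known transcript it was -0.41. With transcript length the values were 0.27 and 0.31. Genes share libraries and are not independent, so these are descriptions. The 8 higher members held 34.93 to 54.93% GC, with a median of 43.9%, and the 6 lower members 49.94 to 63.79%, with a median of 56.4%. TNFRSF19, at 43.16% and with a call that supports nothing further, is among the 8. The median of all 39 was 53.1% and of all genes 50%. With an offset for GC content and length fitted over all genes, 30.3% of genes passed and 17 of the 39 members did, 10 higher and 7 lower. Called alike in both fits were 12 members, 6 higher and 6 lower. Over all genes 3445 passed in both fits, of 5883 that passed without the offset. Genes without a known transcript could not enter the fit with the offset, so the 2 shares are not strictly alike. FZD3 and TCF7L2 passed only without the offset, and AXIN2, CTNNB1, FZD2, LEF1 and WNT7B only with it, and 9 members changed sign. The part of base composition in these differences was not tested beyond that fit. The longest transcript used there is not always the length implied by a library's count and FPKM. For FZD2 it was 2112 bases against 3916 to 3933 implied, and for CTNNB1 4888 against 3470 to 3543. For WNT2B it was 10879 against 2994 to 3239 outside Lv_LINC00673 library 1, where 6067 was implied. For AXIN1 it was 6340 against 3687 to 3778. Values with the offset carry that limit.

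**Figure D5:**
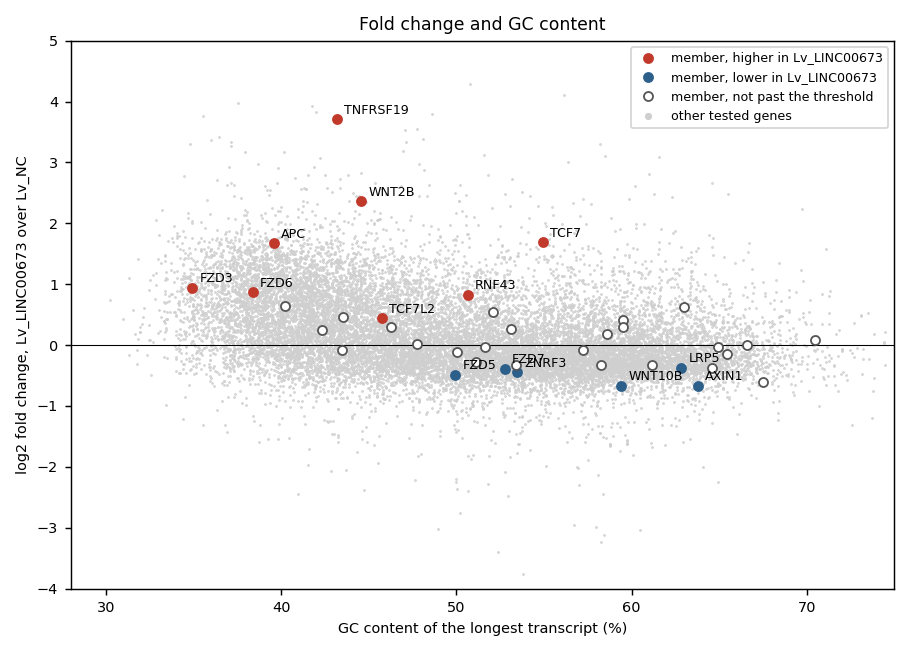
Log2 fold change, Lv_LINC00673 over Lv_NC, against GC content of the longest transcript (%), with tested members as large points and other tested genes in grey (22 tested genes lie outside the axes). The 8 higher members lie at 34.93 to 54.93% GC and the 6 lower members at 49.94 to 63.79%.

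Promoters of 27 of the 40 members were found in the RefSeq table. In the 250 bases before the start, the 6 found for higher members held 49.6 to 70.8% GC (median 58.4%) and 4 to 22 CG dinucleotides. The 6 include TNFRSF19, which has the lowest GC of them and passed the filter only through the Lv_LINC00673 libraries. Its call supports nothing further, and the median without it was not computed. The 3 found for lower members, those of FZD5, AXIN1 and LRP5, held 76.8 to 87.2% GC (median 77.6%) and 30 to 43 CG dinucleotides. The 17 found for tested members that did not pass spanned 47.6 to 86.8% GC (median 72.0%), and the median of all 27305 promoters was 58.0% GC with 11 CG dinucleotides. The TCF/LEF motif was searched as CTTTGAA or CTTTGAT on either strand, and 6.03% of all promoters held at least one of them. Among members only DKK1 did, on the plus strand in its window chr10:52314031-52314280, 95 bases before the start, and the stretch around it is shown with the motif in capitals.
DKK1: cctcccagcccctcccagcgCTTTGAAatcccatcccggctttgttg
A match of these letters is a description and not a binding site, and other windows were not searched.

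The wider pathway was described by 110 further genes, of which 92 were tested. Of these 35 passed (38.0%), 18 higher and 17 lower, with a median log2 fold change of -0.03, beside 26.8% of all genes tested, 14.3% higher and 12.5% lower. With the offset 14 were higher and 25 lower, beside 15.7% of all genes higher and 14.6% lower, and with scaling by library totals 26 were higher and 7 lower, beside 18.5% higher and 5.58% lower. The count was 14 without Lv_LINC00673 library 2 or Lv_NC library 3, 16 without Lv_LINC00673 library 3 and 17 without Lv_NC library 2. By subgroup, to be read against the same shares, of the 10 tested target genes 1 was higher and 6 were lower, and of the 29 cytosolic components 8 were higher and 4 lower. Of the 16 further receptors 3 were higher and 1 lower, and of the 18 nuclear factors 4 were higher and 3 lower. The 11 further inhibitors held 2 higher and 0 lower genes, the 4 secretion genes 0 higher and 2 lower, and the 4 further ligands 0 higher and 1 lower. Among the higher were USP34, a deubiquitinase that acts on axin proteins, with 69.1 ± 15.8 CPM in Lv_LINC00673 and 24.3 ± 6.41 CPM in Lv_NC (log2 fold change 1.51, adjusted p = 0.0045), and CHD8, a chromatin remodeller that binds beta-catenin, with 39 ± 7.02 CPM in Lv_LINC00673 and 14.5 ± 2.40 CPM in Lv_NC (log2 fold change 1.43, adjusted p = 0.00348). The planar polarity gene PRICKLE2 had 11.0 ± 1.77 CPM in Lv_LINC00673 and 4.54 ± 0.876 CPM in Lv_NC (log2 fold change 1.28, adjusted p = 0.00534). RUNX2, the osteoblast transcription factor, had 4.36, 5.60 and 3.10 CPM in Lv_LINC00673 and 1.99, 1.73 and 1.78 CPM in Lv_NC (log2 fold change 1.25, adjusted p = 0.00921). MYC, a growth regulator and classic target in colon, had 366, 303 and 330 CPM in Lv_LINC00673 and 595, 701 and 712 CPM in Lv_NC (log2 fold change -1.01, adjusted p = 0.00243). JUN, an AP-1 factor that many signals induce, had a log2 fold change of -1.10 (adjusted p = 0.00132), and the co-repressor gene TLE3 had 119 ± 2.28 CPM in Lv_LINC00673 and 182 ± 17.9 CPM in Lv_NC (log2 fold change -0.61, adjusted p = 0.00528). PPARD, a nuclear receptor gene, had 58.0 ± 5.43 CPM in Lv_LINC00673 and 86.5 ± 10.2 CPM in Lv_NC (log2 fold change -0.58, adjusted p = 0.00998). These 8 genes had the same sign with the offset and passed, but USP34 was then at 0.72, PRICKLE2 at 0.79 and PPARD at -0.35 (log2 fold change).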

How the data were processed

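Total RNA of 6 U2OS libraries was sequenced from TruSeq libraries, per the labels' protocols. The deposited counts are whole read counts per gene, unnormalized. The deposited FPKM values are the authors' own. The build was hg38, per the submitters' processing notes; aligner, counter, annotation and strand were not given in the sources used here. Columns were matched to samples by name (0 unmatched; the column titles spell one group slightly differently from the sample titles).

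After filterByExpr and TMM scaling, edgeR 4.0.16 ran its robust quasi-likelihood test (two-sided, R 4.3.3), with Benjamini-Hochberg adjustment over all 21933 tested genes. Scripts were tested on simulated data. SE is the log2 fold change over the root of F. The GC and length offset is a spline (5 degrees of freedom) per library over the longest GENCODE transcript, for 82.8% of tested genes. FPKM were tested on log2(FPKM + 1) or log2(FPKM + 0.1) with limma 3.58.1; folds on that scale understate low genes. DESeq2 1.42.0, voom, other scalings and filters, a replicate block and leaving out each library were alternatives. By rule, values per library are given for members past the threshold and for the member of highest FPKM in each role, and up to 4 higher and 4 lower of the other pathway genes are named; values per library of other members were added after being seen. Coordinates and promoters are RefSeq GRCh38.p14. The members, lists and tests were chosen with earlier results of these data known. The blood marker list as first written held a further gene that is not reported here.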

Additional observations from a re-analysis of the deposited data

How the results depend on the processing

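WNT2B, APC and AXIN1 kept direction and call under all 19 alternatives. Over all genes the count of 5883 became 1208 with a replicate block and 2578 on log2(FPKM + 1) without a filter, and 2800 to 6498 when one library was left out. The 14 members became 3 with the block (APC, AXIN1 and WNT2B), which is 7.69% of those tested beside 5.51% of all genes. On log2(FPKM + 1) they became 9 (23.7% of those tested beside 20.2% of all genes). On log2(FPKM + 0.1) they became 9 (23.7% beside 19.9%), and on log2(FPKM + 1) without a filter 5 (12.5% beside 7.49%). Without one library they became 6 to 16. The 35 other pathway genes became 7 with the block (7.61% beside 5.51% of all genes). They became 15 on log2(FPKM + 1) without a filter (14.4% beside 7.49%), and 14 to 41 without one library. Replicate numbers showed no sign of pairing the libraries. Deviations of same-numbered libraries from their group mean correlated at -0.123, -0.11 and 0.001, and no Lv_LINC00673 library correlated best with its own number. With so few libraries per group this cannot exclude shared days or batches, which the labels leave unstated. The lower counts with the block therefore stand as a limit. The log2 fold change of LINC00673 was -0.44 and past the threshold in DESeq2 (adjusted p = 0.0429), and -0.53 to -0.35 without one library. Signs turned for FZD2 (0.14 with library totals, 0.01 with a filter of 1 CPM, 0.11 on log2(FPKM + 1) with and without a filter, 0.12 on log2(FPKM + 0.1), 0.30 with the GC and length offset, -0.16 to 0.05 without one library), CTNNB1 (0.09 with library totals, 0.07 on each FPKM scale) and PORCN (0.05 with the offset). The cause was not tested. TNFRSF19 and TCF7 rest on 0 to 28 and 21 to 89 counts per library.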
